A study of Mus musculus with 35 samples.

Results

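Transcripts of the proteasome genes were measured in single mouse embryonic fibroblasts (MEFs), connective tissue cells grown from embryos. The genes were taken by symbol: every row named Psma, Psmb, Psmc, Psmd, Psme, Psmf or Psmg followed by a number, leaving out the immunoproteasome genes Psmb8, Psmb9 and Psmb10 and names ending in -ps. This gave 45 of the 19085 mouse genes counted. One was Psmc3ip, a recombination protein that only shares the name, so 44 proteasome genes are described. By role they were 7 alpha and 7 beta subunits of the 20S core, 6 ATPases and 11 non-ATPases of the 19S cap, 3 chaperones of the cap's base, 4 chaperones of the core, 5 activators and 1 inhibitor.

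The 21 cells of one group carried micronuclei, small extra nuclei that form around chromosomes or fragments left out of the main nucleus at division, and the 14 cells of the other group had none. Every cell came from strain C57Bl/6J MEFs kept in 3% oxygen, received 1 Gy of irradiation, was re-seeded on membrane dishes 32 h later, and was cut out by laser at 48 h after its DNA had been stained with PicoGreen. No unirradiated cells were part of the comparison, and the labels give no genotype. Each cell was made into a Smart-seq2 library, which covers whole polyadenylated transcripts and carries no molecular identifiers. The labels name no culture or embryo behind a cell, so each group is 1 sample: group values are given as descriptions, with no test and no p-value, and the spread shown is that between cells. Cells are numbered within their group only to name them.

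The proteasome is the barrel-shaped protease that degrades proteins marked with ubiquitin. Alpha and beta rings stack into the core, whose beta subunits hold the cutting sites, and the cap binds ubiquitin chains, removes them, and unfolds the substrate with its ring of ATPases before feeding it through the alpha ring. Other activators can open the core in place of the cap, dedicated chaperones build the particle, and in many cell types the genes are raised together by the transcription factor Nfe2l1 when proteasome activity falls short.

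Library size ranged from 57514 to 1794113 gene reads in cells with micronuclei (median 281800), against 56766 to 2023111 in cells without (median 736715). A library detected 2391 to 8964 genes in cells with micronuclei and 3861 to 8229 in cells without. 6 cells detected fewer than 4500 genes, cells 6 and 21 with micronuclei and cells 1, 5, 7 and 8 without, so they made up 2 of 21 cells in one group and 4 of 14 in the other. Since this difference touches many values, results are also given without these 6 cells, a choice made after seeing the data. All 8 fibroblast markers tested had 5 reads or more in at least 1 cell. They summed to 2549 to 15142 CPM (counts scaled to 1000000 gene reads) in cells with micronuclei and to 4839 to 16419 CPM in cells without. Not every cell showed each marker: Pdgfra had 5 reads or more in 7 of 21 and 1 of 14 cells, and Pdgfrb in 9 of 21 and 4 of 14. The 10 macrophage markers summed to more than 100 CPM in cells 4, 6, 10 and 18 with micronuclei, at up to 16359 CPM in cell 10. Their sum reached at most 64.1 CPM in cells without, and both group medians were 0. Adgre1, Ptprc, Fcer1g, C1qa, C1qb and Aif1 had 5 reads or more in cell 10 only. Lyz2 and Csf1r had 5 reads or more in 3 cells each and Tyrobp in 2, all with micronuclei. Cd68 was alike in both groups, at 17.6 CPM with micronuclei and 18.7 CPM without. It had 5 reads or more in 3 cells of each group. Cell 18 with micronuclei had 25.7% of its reads from mitochondrial genes.

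Proteasome transcripts together made up 1.34% of all gene reads in cells with micronuclei and 1.15% in cells without, 13433 CPM (exact 95% Poisson interval 13365 to 13501) against 11526 CPM (11464 to 11588). Such intervals cover the counting of reads only. Per cell the sum ran from 5773 to 16601 CPM with micronuclei (median 12106) and from 7872 to 16621 CPM without (median 10708). The 2 lowest sums of all were those of cells 18 and 4 with micronuclei, which also had the highest mitochondrial shares, 25.7% and 9.57%; their part in the result was not tested. The next 5 lowest were those of cells 1, 7, 14, 13 and 5 without micronuclei, and the highest cell of each group lay close to that of the other. The ratio of the summed reads was 0.22 on the log2 scale (1 CPM added to each group value, here and throughout), 0.14 without cell 7 without micronuclei, and 0.060 without the 6 cells of few genes.

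The core took 57.2% of all proteasome reads, the cap 34.6%, the chaperones 4.40%, and the activators and inhibitor 3.72%. Per length of exon, the median over the core genes was 253 CPM per kb, over the cap genes 154, over the chaperones 45.9, and over the activators and inhibitor 30.3. Single genes crossed this order: the lowest core gene, Psmb7, stood at 124 CPM per kb, below the highest cap gene, Psmd7, at 308. Within the core, Psmb6 at 1242 CPM per kb, Psma7 at 974, Psmb2 at 910 and Psmb3 at 713 stood above the other 10 core genes, the next of which was Psma5 at 364.

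**Figure D1:**
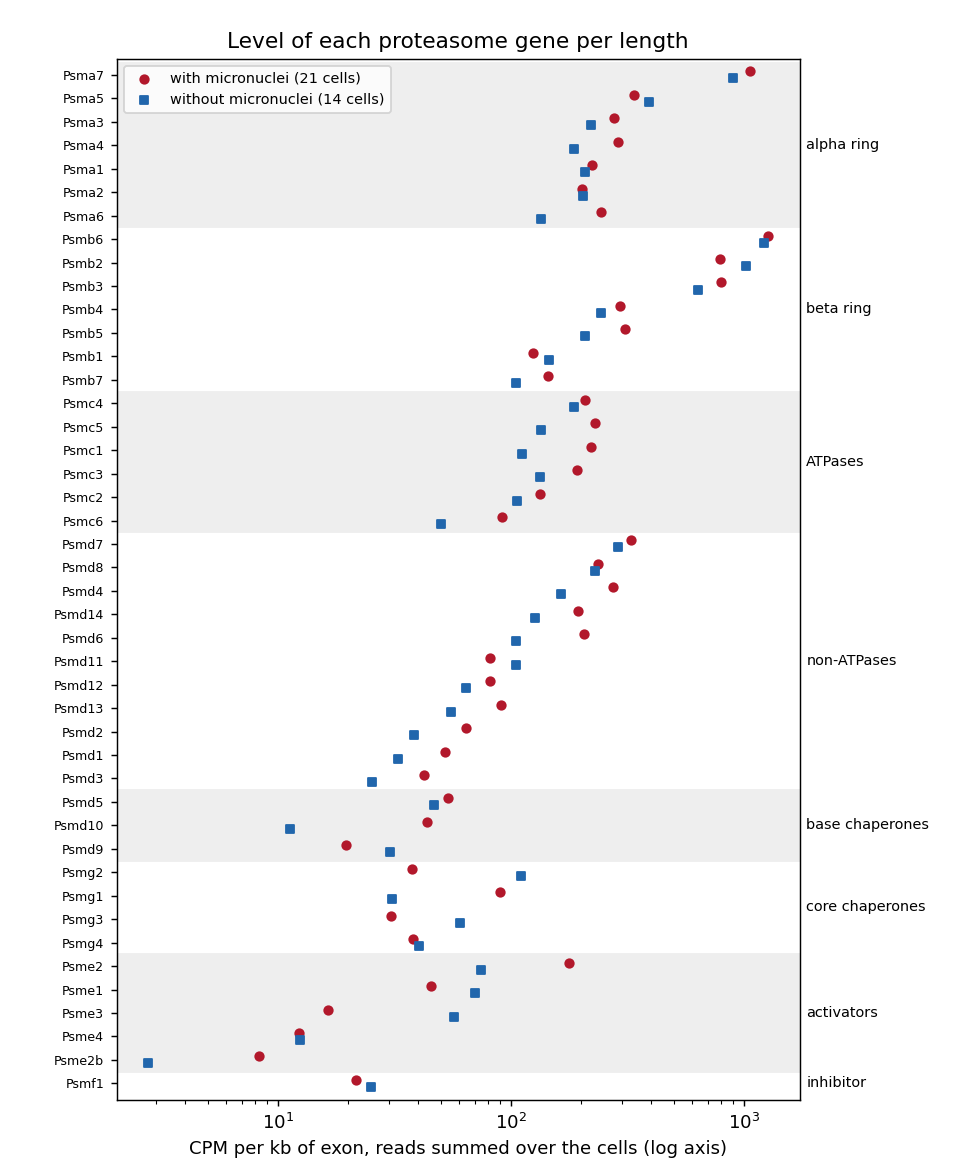
CPM per kb of exon (log axis) of the 44 proteasome genes, from reads summed over the 21 cells with micronuclei (circles) and the 14 cells without (squares), by role. Psmb6, Psma7, Psmb2 and Psmb3 lie highest in both groups, and the activators and chaperones lie mostly under 100 CPM per kb.

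The proteasome genes were found in most cells. At 5 or more reads in a cell, 23 of the 44 were detected in at least 90% of the 35 cells, 52.3%, against 850 of the 8390 measured genes, 10.1%. A gene counts as measured at 5 CPM or more over all cells with 5 reads or more in at least 5 cells; 43 of the 44 met this, all but Psme2b. Psma2, Psma3, Psma7, Psmb3, Psmb4 and Psmd7 had 5 or more reads in all 35 cells. Of the 44 genes, a cell with micronuclei held 20 to 43 at 5 reads (median 39) and a cell without held 28 to 43 (median 37). With every cell thinned to 119337 reads, the medians were 36 genes over the 17 cells with micronuclei deep enough and 35 over the 13 cells without; 4 and 1 cells were too shallow and left out.

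The number of proteasome genes seen in a cell went with the number of all genes seen in it, as Pearson's r of 0.85 and Spearman's rho of 0.82 over 35 cells, and less with the reads, at r of 0.20 and rho of 0.30. Both counts come from the same library. In cells with micronuclei r with the genes seen was 0.82 (21 cells) and in cells without 0.92 (14 cells); without the 2 cells farthest from the median it was 0.78 over all. Cell 6 with micronuclei had 2391 genes and held 20 of the 44 proteasome genes, with no read of Psma1, Psmb1 and 8 of the 17 cap genes in 220313 reads. Cell 21 with micronuclei had no read of Psma5, Psma6 and 5 cap genes, and no read of any chaperone. Cell 7 without micronuclei was the deepest library of all at 2023111 reads, yet it had no read of Psmb7, Psmc2, Psmc5, Psmd2, Psmd12 and Psmd13. At that depth a count of 0 allows up to 1.48 CPM (3 reads); over all cells the limit lay between 1.48 and 52.8 CPM.

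Psma subunits form the 2 outer rings whose tails gate the core. Their summed level was 3934 CPM in cells with micronuclei and 3391 CPM in cells without. Psma7, the most abundant of them per length, ran from 356 to 2782 CPM over cells with micronuclei (median 1134) and from 232 to 2248 CPM over cells without (median 946). The cells of both groups overlapped over nearly the whole range, and the summed level was 1246 against 1058 CPM, a log2 ratio of 0.24. Psma3 had the narrowest spread of all proteasome genes and ran from 152 to 1540 CPM with micronuclei (median 597) and from 334 to 960 CPM without (median 570). Psma6, the lowest of the ring, had summed levels of 278 CPM with micronuclei and 155 CPM without, a log2 ratio of 0.84 that was 0.25 without the 6 cells of few genes. Psma1 ran from 0 to 797 CPM with micronuclei (median 255) and from 0 to 1081 CPM without (median 135), its highest value being in cell 5 without micronuclei. Of the 7 alpha genes 5 were higher in cells with micronuclei in summed reads, where 56.0% of all measured genes were. Psma2 and Psma5 were lower, at log2 ratios of -0.0038 and -0.22.

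The beta ring holds the 3 proteolytic subunits, each with its own cutting preference, and its sum differed less: 3522 CPM in cells with micronuclei and 3432 CPM in cells without, a log2 ratio of 0.037 that TMM scaling turns to a negative value. The catalytic genes Psmb5, Psmb6 and Psmb7 lie at chr14:54614119-54618022, chr11:70525367-70527858 and chr2:38588036-38644087 (GRCm38, GENCODE M21). Psmb5, which cuts after hydrophobic residues, ran from 32.7 to 694 CPM with micronuclei (median 294) and from 0 to 414 CPM without (median 196). The 6 highest values were those of cells with micronuclei, the lower range was shared, and cells 5 and 8 without micronuclei, both of few genes, had no read. Summed, Psmb5 was 278 CPM (269 to 288) against 187 CPM (179 to 195), a log2 ratio of 0.58 that stayed between 0.39 and 0.76 when any 1 cell was left out and was 0.23 without the 6 cells of few genes.

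Psmb6, which cuts after acidic residues, was the most abundant proteasome gene per length. It ran from 0 to 1994 CPM with micronuclei (median 733) and from 219 to 1321 CPM without (median 767). The 2 ranges lay over each other, with cell 3 with micronuclei the only cell without a read. Summed, it was 1015 against 968 CPM, a log2 ratio of 0.069 that became -0.17 with every cell weighted equally and -0.072 with TMM scaling. Psmb7, which cuts after basic residues, ran from 8.68 to 399 CPM with micronuclei (median 132) and from 0 to 303 CPM without (median 83.6), with no read in cells 5, 7 and 14 without micronuclei. Its log2 ratio of 0.46 was 0.18 without cell 7 without micronuclei and -0.22 without the 6 cells of few genes. Part of Psmb7 lies opposite Nek6, and the sources used here do not say whether counting used strand.

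Of the beta subunits without a cutting site, Psmb2 was the only core gene lower in cells with micronuclei in summed reads, with equal weights and with each cell left out: 680 against 880 CPM, a log2 ratio of -0.37 that lay between -0.51 and -0.19. It ran from 4.54 to 2102 CPM with micronuclei (median 643) and from 1.85 to 1380 CPM without (median 794), so the groups overlapped. Psmb1, at 425 against 499 CPM (log2 ratio -0.23), turned to 0.11 without cell 5 without micronuclei. Psmb3 and Psmb4 had log2 ratios of 0.32 and 0.27, which were -0.037 and -0.32 without the 6 cells of few genes.

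The transcription factor Nfe2l1 reads the antioxidant response element, whose core is TGACNNNGC. Among the 37 proteasome genes with an entry in the RefSeq promoter set (GRCm38.p6, 250 bases before to 50 after the start), 6 held that core on either strand, 16.2%, against 14.0% of all 27025 genes in the set. The CCAAT box, counted as CCAAT on either strand, was in 12 of the 37, 32.4%, against 41.1% of all genes. The catalytic gene Psmb7 had no entry in the set and was not searched. The 2 catalytic genes with a match are shown whole because the element lies within 50 bases before their start, at chr14:54617946-54618245 on the minus strand for Psmb5 and chr11:70525107-70525406 on the plus strand for Psmb6; capitals mark the element.
Psmb5: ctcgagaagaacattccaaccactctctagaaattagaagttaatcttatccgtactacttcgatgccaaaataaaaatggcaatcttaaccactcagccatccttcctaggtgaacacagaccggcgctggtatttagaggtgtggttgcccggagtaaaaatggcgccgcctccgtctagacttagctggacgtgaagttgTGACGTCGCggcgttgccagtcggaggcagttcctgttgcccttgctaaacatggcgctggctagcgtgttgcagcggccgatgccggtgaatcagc
Psmb6: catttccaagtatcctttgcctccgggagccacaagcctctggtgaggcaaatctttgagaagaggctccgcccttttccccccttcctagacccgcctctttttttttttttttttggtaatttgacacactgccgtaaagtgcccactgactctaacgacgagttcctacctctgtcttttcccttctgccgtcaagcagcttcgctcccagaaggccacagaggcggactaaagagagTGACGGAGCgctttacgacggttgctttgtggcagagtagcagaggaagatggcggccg
The other 4 matches are shown with the bases around them, since they fall in a cap ATPase, a cap lid subunit, a chaperone and an activator. They lie at chr14:45329589-45329613 (Psmc6), chr11:107479278-107479297 (Psmd12), chr5:123228151-123228175 (Psmd9) and chr11:30771760-30771784 (Psme4), all genes of the plus strand, and where the capitals begin with GC the element reads on the other strand.
Psmc6: agccagtaGCTAAGTCAggcattgc
Psmd12: tctGCTGTGTCAcatttgcc
Psmd9: ctagccggTGACCCCGCccacttcc
Psme4: ctgcggctGCAGCGTCAccagaaga
The 6 genes with the element did not move one way: their log2 ratios were 0.58 for Psmb5, 0.069 for Psmb6, 0.85 for Psmc6, 0.35 for Psmd12, -0.62 for Psmd9 and -0.015 for Psme4. A match is a description of these letters and says nothing about binding.

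Over all 14 core genes, 10 were higher in cells with micronuclei and 4 lower, 71.4% higher, where 56.0% of the 8390 measured genes were higher. With TMM scaling 8 of the 14 were higher. The share of all measured genes higher with TMM scaling is not given here. The summed core was 7456 CPM in cells with micronuclei and 6822 CPM in cells without, a log2 ratio of 0.13. It was 0.075 without cell 11 with micronuclei, 0.082 without cell 1 without, 0.045 without the 6 cells of few genes, and -0.013 with TMM scaling, which lowers every gene's ratio by 0.14. Per cell the core ran from 2804 to 9781 CPM with micronuclei (median 6814) and from 2243 to 8788 CPM without (median 6564), so the medians lay closer together than 1 SD over the cells of either group (1905 and 1503 CPM).

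The 19S cap differed more between the summed groups than the core did, and much less once the 6 cells of few genes were left out. It summed to 4994 CPM (4953 to 5036) in cells with micronuclei and 3665 CPM (3630 to 3700) in cells without, a log2 ratio of 0.45. Without the 6 cells of few genes the sums were 5011 and 4685 CPM, a log2 ratio of 0.097, and without cell 7 without micronuclei alone the ratio was 0.24. Of the 17 cap genes 16 were higher in cells with micronuclei, against 56.0% of all measured genes, and 10 of 17 without those 6 cells, against 51.8% of all measured genes. With equal weights 15 were higher, against 52.8% of all measured genes, and by mean log2 CPM 13, against 63.9%. With TMM scaling 15 were higher, a count without its share over all measured genes here. The median log2 ratio of the cap genes was 0.66, with 0.15 over all measured genes, and became 0.25 and 0.037 without the 6 cells. The 13 cap genes higher in summed reads, with equal weights and with each cell left out made up 76.5% of the cap, where 33.5% of all measured genes were so and 20.1% were lower throughout.

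Per cell the cap ran from 2656 to 6549 CPM with micronuclei (median 4344) and from 968 to 6521 CPM without (median 3712). Cells 7 and 5 without micronuclei were the 2 lowest of all, at 968 and 1859 CPM, and both were cells of few genes. The ratio of core to cap was 1.49 in summed reads with micronuclei and 1.86 without. Over single cells it ran from 0.940 to 2.25 with micronuclei (median 1.45) and from 0.490 to 7.05 without (median 1.78), and the 3 values outside the first range were those of cells 7, 5 and 1 without micronuclei, all of few genes. In cell 7 the core, at 6826 CPM, was near its group's median while the cap was at 968; in cell 1 the core was at 2243 CPM and the cap at 4577. Without the 6 cells the ratio of summed core to summed cap was 1.47 with micronuclei and 1.53 without. The medians over single cells stayed further apart, at 1.42 over 19 cells with micronuclei and 1.69 over 10 cells without. Their ranges, 0.940 to 2.25 and 1.35 to 1.89, overlapped.

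**Figure D2:**
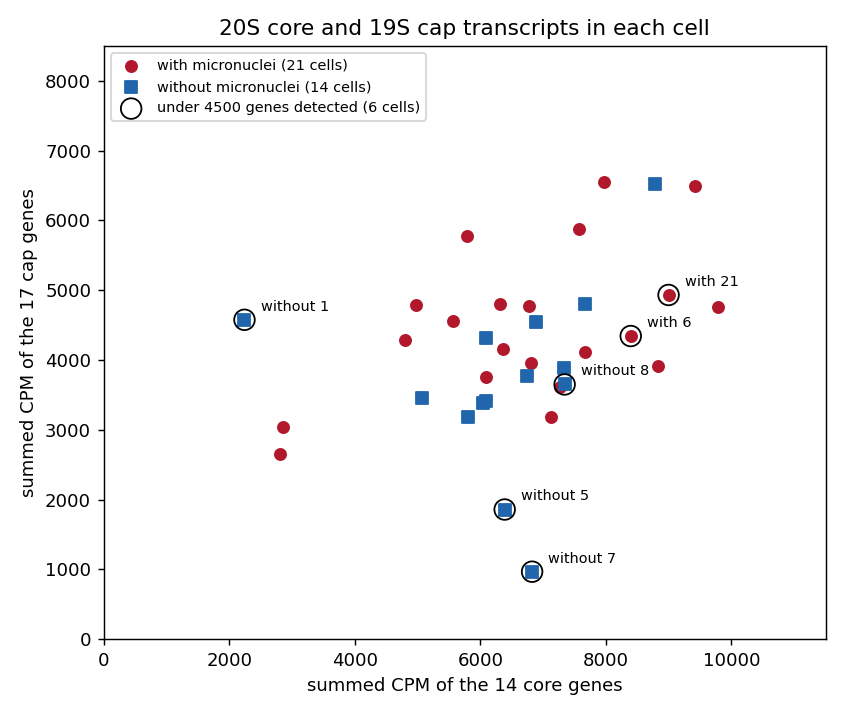
Summed CPM of the 14 core genes against the summed CPM of the 17 cap genes in each of the 21 cells with micronuclei (circles) and the 14 cells without (squares); rings mark the 6 cells with fewer than 4500 genes detected. Most cells of both groups share one cloud. Cells 1, 5 and 7 without micronuclei lie away from it. So do cells 4 and 18 with micronuclei, at core sums of 2863 and 2804 CPM.

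The ATPases unfold the substrate. They summed to 1785 CPM with micronuclei and 1197 CPM without, a log2 ratio of 0.58. All 6 were higher with micronuclei, where 56.0% of all measured genes were. Of these, 3 remained higher without the 6 cells of few genes, where 51.8% of all measured genes were higher. Psmc1 had the largest ratio of the cap, 351 against 177 CPM (log2 ratio 0.98, 0.35 without those cells); it ran from 18.2 to 713 CPM with micronuclei (median 254) and from 16.1 to 336 CPM without (median 179). Psmc6, the lowest of the ring per length at 70.3 CPM per kb, was at 204 against 112 CPM (log2 ratio 0.85, 0.30 without them). Psmc4, the highest per length at 197 CPM per kb, was at 300 against 269 CPM, a log2 ratio of 0.16 that became -0.11 without cell 7 without micronuclei. Psmc4 had 5 reads or more in 20 of 21 cells with micronuclei (95.2%, exact 95% Clopper-Pearson interval 76.2 to 99.9%) and in 9 of 14 without (64.3%, 35.1 to 87.2%). Psmc3 and Psmc2 had log2 ratios of 0.53 and 0.32, and of -0.027 and -0.15 without the 6 cells.

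Among the non-ATPases of the cap, 10 of 11 were higher in cells with micronuclei, where 56.0% of all measured genes were. Without the 6 cells 7 of 11 were higher, where 51.8% of all measured genes were. Psmd4, a receptor for ubiquitin chains, was at 505 against 301 CPM, and its log2 ratio of 0.74 stayed at 0.60 without those cells. It ran from 0 to 903 CPM with micronuclei (median 339) and from 4.94 to 839 CPM without (median 214), and the groups overlapped. Psmd1, a scaffold subunit of the base, had a log2 ratio of 0.66 and 0.56 without those cells, although its mean log2 CPM per cell was lower with micronuclei, by a difference of -0.50. Psmd2, the docking subunit for shuttle proteins, was at 190 against 114 CPM (log2 ratio 0.74, 0.35 without the 6 cells). Psmd14, the deubiquitinase that takes the chain off the substrate, was at 299 against 195 CPM (log2 ratio 0.62, 0.27 without them), and its partner Psmd7 at 517 against 457 CPM (0.18, and -0.14 without them).

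The lid subunit Psmd6 was at 285 CPM with micronuclei and 147 CPM without, a log2 ratio of 0.95 that was 0.34 without the 6 cells. Psmd13, another lid subunit, was also seen in unequal shares of the cells: 19 of 21 with micronuclei (90.5%, 69.6 to 98.8%) and 9 of 14 without (64.3%, 35.1 to 87.2%) had 5 reads, and 15 of 17 and 7 of 13 after thinning. Its log2 ratio of 0.70 was 0.0078 without the 6 cells, of which cells 5 and 7 without micronuclei had no read. The 2 highest lid genes by CPM differed little: Psmd8 was at 523 against 508 CPM, with a log2 ratio of 0.042 that was -0.099 with TMM scaling, and Psmd7 as given. Psmd3, the lowest cap gene per length at 33.7 CPM per kb, ran from 0 to 251 CPM with micronuclei (median 54.8) and from 0 to 191 CPM without (median 47.6). It had 5 reads in 13 of 21 cells with micronuclei and 11 of 14 without. Psmd14 had them in 17 of 21 and 14 of 14, and Psmd4 in 19 of 21 and 14 of 14. These genes were thus seen in the larger share of cells without micronuclei. After thinning the counts were 9 of 17 and 7 of 13 for Psmd3, 15 of 17 and 11 of 13 for Psmd14, and 16 of 17 and 9 of 13 for Psmd4. Psmd11, a lid subunit that touches the core, was the 1 cap gene lower with micronuclei, at 241 against 310 CPM; its log2 ratio of -0.36 turned to 0.081 when cell 8 without micronuclei was left out. Psmd12 was at 216 against 170 CPM, a log2 ratio of 0.35 that was 0.027 without cell 13 with micronuclei.

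**Figure D3:**
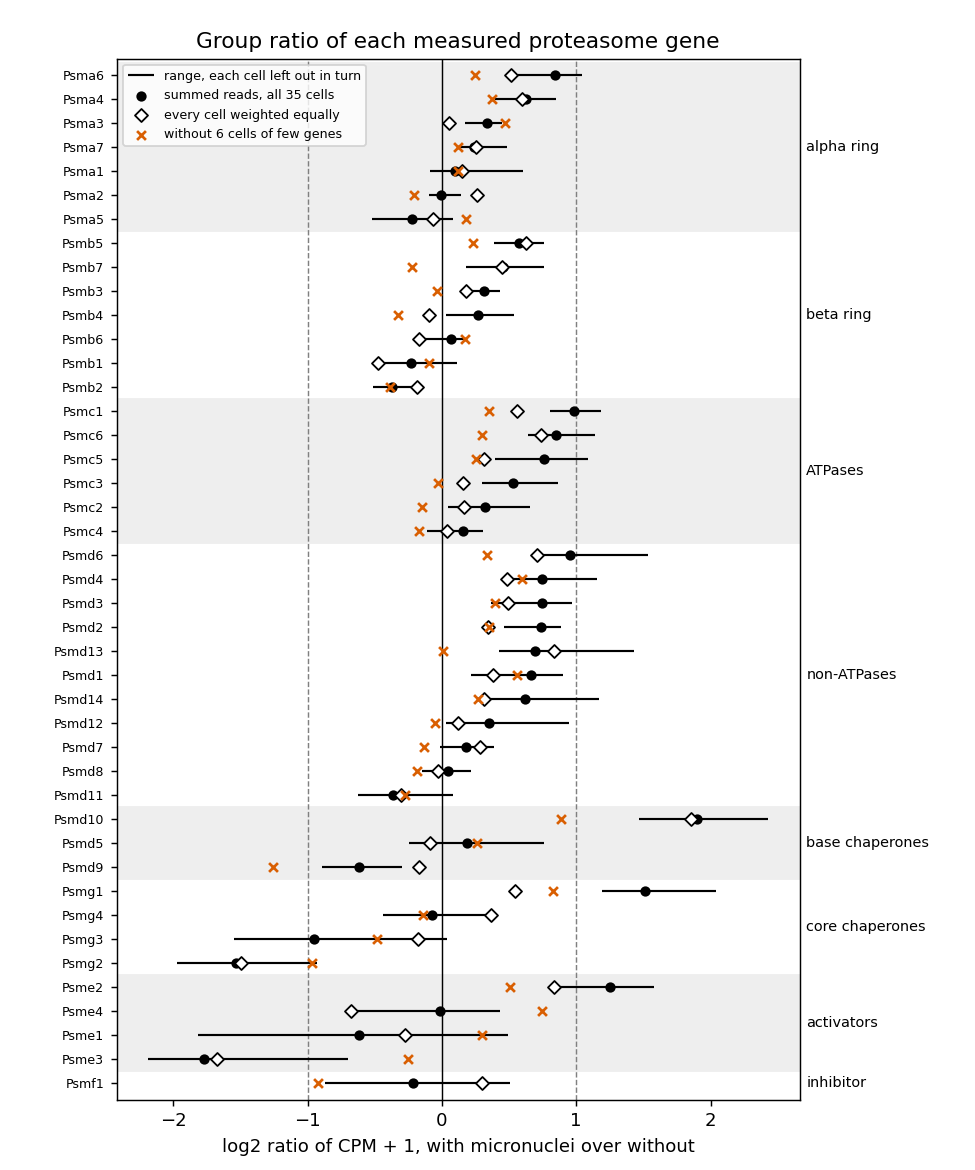
Log2 ratio of CPM + 1 in cells with micronuclei over cells without for the 43 measured proteasome genes, by role; lines span the ratios with each cell left out, diamonds weight cells equally, crosses leave out 6 cells of few genes, and dashed lines mark 2-fold. Of the 17 cap genes 16 lie right of 0 in summed reads, and 10 have their cross right of 0.

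A 2-fold group ratio was passed by 5 of the 43 measured proteasome genes, none of them in the core or the cap. Psmd10, Psmg1 and Psme2 were higher with micronuclei, 3 of 43 where 22.9% of all measured genes were past 2-fold higher, and Psmg2 and Psme3 lower, 2 of 43 where 14.7% were past 2-fold lower. Psmd10 lies at chrX:140948429-140956728, Psmg1 at chr16:95979933-95990960, Psme2 at chr14:55587441-55591113 and Psme3 at chr11:101316213-101323537. Leaving out 1 cell gave 2 to 7 genes past 2-fold higher, and the count was 5 when cell 14 with micronuclei was left out, 7 for cell 4, 5 for cell 10 and 7 for cell 11 without micronuclei. Past 2-fold lower the count lay between 1 and 3, and was 1 when cell 8 without micronuclei was left out. With every cell weighted equally 1 gene was past 2-fold higher, and without the 6 cells of few genes 0 were past it higher and 1, Psmd9, lower, where 18.2% and 13.6% of all measured genes were.

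The chaperones of the cap's base hold the ATPases until the ring is closed. Psmd10, also known as gankyrin, ran from 0 to 899 CPM in cells with micronuclei (median 28.4) and from 0 to 95.7 CPM in cells without (median 2.24). Its highest value was in cell 6 with micronuclei, a cell of few genes that gave 21.9% of its reads. Cells 15, 17 and 2 with micronuclei, at 233, 109 and 100 CPM, also lay above the highest cell without. The groups overlapped from 0 to the 95.7 CPM of that cell. Summed, Psmd10 was 64.4 CPM (59.8 to 69.3) against 16.5 CPM (14.28 to 19.05), a log2 ratio of 1.90, which lay between 1.47 and 2.43 when 1 cell was left out and was 0.88 without the 6 cells of few genes. It had 5 reads in 12 of 21 cells with micronuclei and in 5 of 14 without. Psmd9 ran from 0 to 324 CPM with micronuclei (median 34.04) and from 0 to 199 CPM without (median 80.0), a summed log2 ratio of -0.62 that was -1.26 without the 6 cells. Psmd9 shares part of its exons with a noncoding gene on the other strand, so its reads may hold those of its neighbour. Psmd5 was at 235 against 206 CPM, a log2 ratio of 0.19 that lay between -0.24 (without cell 13 with micronuclei) and 0.76 (without cell 8 without).

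The core chaperones pair up to shape the alpha ring, Psmg1 with Psmg2 and Psmg3 with Psmg4, and the 2 partners of the first pair lay on opposite sides. Psmg1 ran from 0 to 255 CPM with micronuclei (median 44.8) and from 0 to 162 CPM without (median 3.81), summed 93.7 CPM (88.1 to 99.6) against 32.2 CPM (29.0 to 35.6). Its log2 ratio of 1.51 was 0.55 with every cell weighted equally and 0.83 without the 6 cells of few genes, and lay between 1.19 and 2.04 with 1 cell left out. Psmg2 ran from 0 to 190 CPM with micronuclei (median 28.4) and from 0 to 496 CPM without (median 76.7), and its highest value was in cell 8 without micronuclei, a cell of few genes that held 31.8% of the gene's reads. Summed, Psmg2 was 49.1 CPM (45.04 to 53.38) against 144 CPM (137 to 151), a log2 ratio of -1.53 that was -0.93 without cell 8 and -0.97 without the 6 cells. It had 5 reads in 10 of 21 cells with micronuclei and in 12 of 14 without, and in 6 of 17 and 10 of 13 after thinning. Psmg3 had a log2 ratio of -0.95; cell 8 without micronuclei held 38.1% of its reads, and leaving it out gave 0.035. Psmg4 was at 21.1 against 22.3 CPM.

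The activators bind the ends of the core in place of the cap. Psme1 and Psme2 together form the ring that interferon gamma is known to raise. In summed reads over all cells their ratios had opposite signs. Psme2 ran from 4.98 to 519 CPM with micronuclei (median 114) and from 0 to 264 CPM without (median 27.99); every cell with micronuclei had a read of it, and 9 of 14 cells without did. Summed, it was 174 CPM (166 to 182) against 72.5 CPM (67.7 to 77.6), a log2 ratio of 1.25 that was 0.87 without cell 11 with micronuclei and 0.51 without the 6 cells of few genes. It had 5 reads in 16 of 21 cells with micronuclei (76.2%, 52.8 to 91.8%) and in 7 of 14 without (50.0%, 23.04 to 76.96%), and in 16 of 17 and 7 of 13 after thinning. Psme2b, a copy 99.4% identical to Psme2 over 794 bases, had 6.95 against 2.33 CPM and may take reads from it or lend them. Psme1 ran from 0 to 201 CPM with micronuclei (median 17.4) and from 0 to 280 CPM without (median 23.96). Its log2 ratio of -0.62 was -1.81 without cell 13 with micronuclei and 0.49 without cell 7 without. After thinning it was 0.023, and without the 6 cells of few genes 0.30, the same sign as Psme2.

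Psme3, the nuclear activator, ran from 0 to 114 CPM with micronuclei (median 41.9) and from 0 to 1010 CPM without (median 55.02). Cell 5 without micronuclei, of few genes, held 44.5% of all its reads and stood far above the other cells, which overlapped. Summed, it was 43.8 CPM (39.9 to 47.8) against 152 CPM (145 to 159), a log2 ratio of -1.77 that was -0.70 without cell 5 and -0.25 without the 6 cells. Psme4, the large single-chain activator, was at 79.9 against 80.8 CPM, a log2 ratio of -0.015. That ratio was -0.68 with equal weights, -1.13 after thinning and 0.75 without the 6 cells. The inhibitor Psmf1 was at 86.3 against 100.2 CPM, with 5 reads in 8 of 21 and 8 of 14 cells. Its highest value was 1035 CPM in cell 6 with micronuclei. Activators and inhibitor summed to 441 CPM with micronuclei and 486 CPM without, a log2 ratio of -0.14. That value was -0.011, -0.33, -0.34 and -0.040 when cells 7, 11, 13 and 14 with micronuclei were left out 1 at a time, and -0.066, 0.13 and -0.29 for cells 1, 5 and 8 without micronuclei, so its size and sign rest on single cells.

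**Figure D4:**
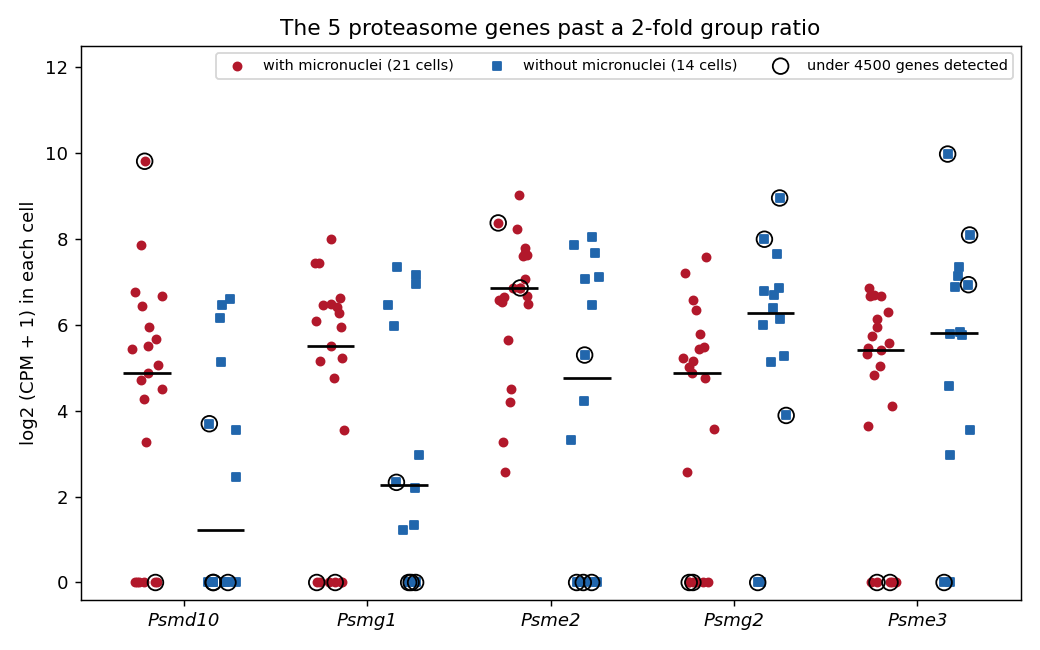
Log2 (CPM + 1) of the 5 proteasome genes past a 2-fold group ratio in each of the 21 cells with micronuclei (circles, left) and the 14 cells without (squares, right); bars mark medians and rings the cells with fewer than 4500 genes detected. The highest Psmd10 value and the highest Psmg2 and Psme3 values belong to cells of few genes, and the groups overlap in each gene.

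Between cells, core genes varied less in relation to their mean than the other roles. The coefficient of variation (SD over mean of CPM across the 35 cells) had a median of 0.579 over the 14 core genes, 0.727 over the 17 cap genes, 1.198 over the 7 chaperones and 1.34 over the 5 measured activators and inhibitor. It falls with level in all genes, so each was set beside the median of measured genes of the same level: 8 of 14 core genes, 12 of 17 cap genes, 4 of 7 chaperones and 3 of 5 activators and inhibitor lay below it. Psma3 had the lowest, 0.410 where genes of its level had 0.548. Psmd10, Psme3 and Psmf1 had 2.60, 2.02 and 1.97, where genes of their levels had 1.34, 1.22 and 1.14, and each had its highest value in a cell of few genes.

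**Figure D5:**
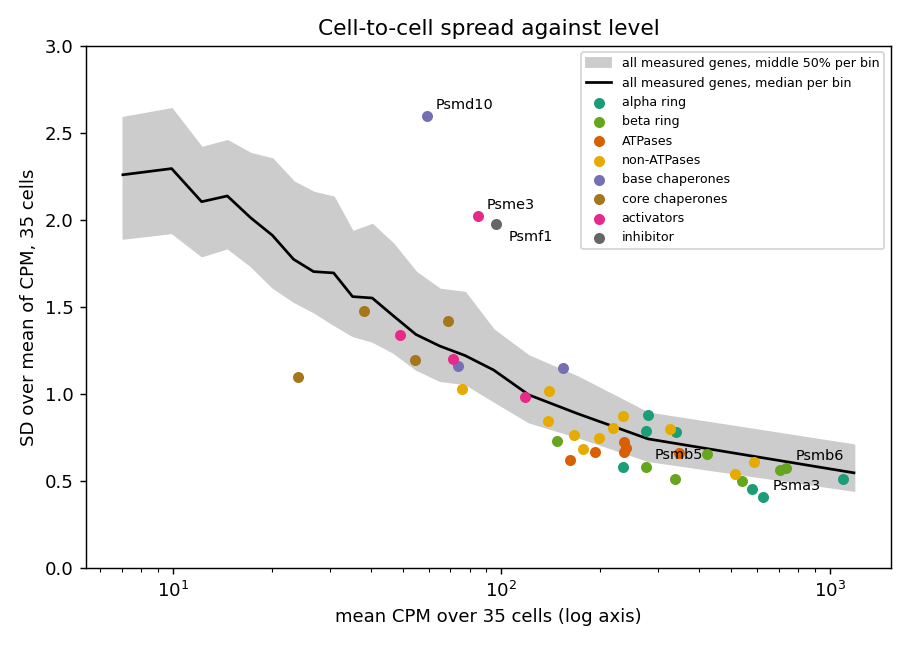
Coefficient of variation of CPM over the 35 cells against mean CPM (log axis) for the 43 measured proteasome genes, coloured by role, with the median (line) and middle 50% (band) of all measured genes in 20 bins of level. Of the core genes 8 of 14, and of the cap genes 12 of 17, lie under the median of genes of their level, and Psmd10, Psme3 and Psmf1 lie above the band.

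Sums of the parts varied together over the 35 cells only in part, and all sums share the library's depth and its total. Alpha and beta ring sums had r of 0.51 and rho of 0.43, ATPases and non-ATPases r of 0.66 and rho of 0.53, and core and cap r of 0.38 and rho of 0.39. Core and activators had r of 0.092 and rho of 0.17. Without the 2 cells farthest from the median, the values of r were 0.63, 0.58, 0.40 and 0.23. Within cells with micronuclei r was 0.49 for the 2 core rings and 0.49 for ATPases and non-ATPases; within cells without it was 0.68 and 0.81. For core and cap r was 0.50 with micronuclei and 0.18 without, but rho was 0.37 and 0.40, and r without each group's 2 farthest cells was 0.23 and 0.21, so the groups' values of r rest on single cells. Among the 253 pairs of the 23 widely detected proteasome genes the median rho was 0.14 and 73.5% were above 0, against 0.030 and 55.6% among pairs of the 850 genes as widely detected. These are weak relations in single libraries and are given as descriptions.

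Genes tied to the particle but outside the symbol rule were listed with earlier results of these data known. Of 11 measured genes for other proteasome parts and assembly, 10 were higher in cells with micronuclei, and also 10 without the 6 cells of few genes, where 56.0% and 51.8% of all measured genes were higher. AI314180, the row of the proteasome-binding scaffold Ecpas, was at 48.4 against 12.6 CPM, a log2 ratio of 1.87 that was 0.71 with equal weights and 1.21 without the 6 cells. Adrm1, a ubiquitin receptor of the cap, was at 201 against 135 CPM (log2 ratio 0.58). The deubiquitinase Uchl5 that it holds was at 122 against 65.8 CPM (0.89), and the deubiquitinase Usp14 at 124 against 77.9 CPM (0.67). Without the 6 cells the ratios of Adrm1, Uchl5 and Usp14 were 0.67, 0.72 and 0.61. With equal weights they were 0.18, 0.99 and 0.35, and after thinning 0.17, 1.07 and -0.029. Ube3c, a ubiquitin ligase of the particle, reached 68.7 against 30.7 CPM (1.14, or -0.078 without the 6 cells). Pomp, which matures the core, was at 311 against 260 CPM (0.26). Ube3a was lower, at 67.5 against 90.7 CPM (-0.42, and 0.39 without the 6 cells).

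Nfe2l1 itself was at 52.1 CPM in cells with micronuclei and 47.5 CPM in cells without, a log2 ratio of 0.13 that lay between -0.12 and 0.45 with 1 cell left out. Of the 10 measured genes of its control, 4 were higher and 6 lower with micronuclei, where 56.0% of all measured genes were higher. None was past 2-fold in summed reads, where 22.9% of all measured genes were past it higher and 14.7% lower. Without the 6 cells of few genes 3 of the 10 were higher, where 51.8% of all measured genes were. In that setting 2 of the 10 were past 2-fold lower, where 13.6% of all measured genes were: Ogt at a log2 ratio of -1.25 and Mafk at -1.56. Of the immunoproteasome genes, Psmb10 was at 56.3 against 43.0 CPM, with 5 reads in 9 of 21 and 5 of 14 cells; its ratio of 0.38 was -0.16 with equal weights. Psmb8 had 53 reads in all with micronuclei and 16 without, of which 58.0% were in cell 10 with micronuclei, the cell with the highest macrophage markers; the part of those markers in its level was not tested. Psmb9 had 2 reads with micronuclei and 0 without, both in cell 15.

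Some counts can hold reads of other genes. Psmc3, Psmd13 and Psmd1 overlap Slc39a13, Sirt3 and Htr2b on the other strand. Psma3, Psma4, Psma5, Psmb3, Psmb5, Psmc1, Psmd2 and Psmd11 have copies elsewhere in the genome that are 95% identical or more over at least 400 bases; the one closest to Psma3, Gm13835, is identical over 665 bases and was given 387 reads over all cells. How the counting treated reads that fit both places is not given in the sources used here.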

How the data were processed

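Raw read counts per gene were deposited by the authors as whole numbers for 35 cells and 19085 mouse genes, plus 62 spike-in RNAs. Per the submitters' processing notes, the aligner was STAR and the genome build GRCm38.p5; per the deposited phenotype table, Rsubread did the counting and cells of low quality were removed before deposit. The sources used here give neither versions nor the strand setting.

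Spike-ins were left out of totals. Reads were summed over each group's cells, scaled to CPM, and compared as log2 ratios with 1 CPM added. Alternatives gave every cell equal weight, averaged log2 CPM, scaled by TMM (edgeR 4.0.16), thinned cells to 119337 reads, added 0.1 or 5 CPM, changed the filters (none, or 20 CPM and 10 cells) or left out each cell. Leaving out 6 cells of few genes or 4 with macrophage markers, and counting cap and core genes in one direction, were added after seeing the data. No 2 cells had identical counts (595 pairs). Exon lengths, overlaps and coordinates came from GENCODE M21 and copies from blastn 2.17.0. Every member could be named; full values went to catalytic genes, genes past 2-fold and the extremes of each role by CPM. Members and lists were chosen with earlier results of these data known. Psma8 and Psmb11 were not analysed here. Some genes of the ubiquitin lists are not reported here.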

Additional observations from a re-analysis of the deposited data

How the results depend on the processing

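No paired analysis was possible because the cells carry no shared replicate numbers in the labels and no result comes from a test. Log2 ratios are given as cells with micronuclei over cells without. For all proteasome genes the summed ratio of 0.22 became 0.13 with equal weights, 0.080 with TMM scaling, 0.12 as mean log2 CPM, 0.060 without the 6 cells of few genes and 0.25 without the 4 cells with macrophage markers (0.14 to 0.31 with 1 cell left out). The core's 0.13 became 0.086, -0.013, 0.072, 0.045 and 0.16 under the same settings, and 0.16 after thinning (0.075 to 0.18). The cap's 0.45 became 0.27, 0.31, 0.34, 0.097 and 0.48, and 0.34 after thinning (0.24 to 0.60). For activators and inhibitor, -0.14 became -0.20 with equal weights, -0.28 with TMM, -0.010 after thinning and 0.093 without the 6 cells (-0.34 to 0.13). The median over measured proteasome genes, 0.32, became 0.18 with TMM, 0.44 as mean log2 CPM and 0.12 without the 6 cells (0.18 to 0.45). Genes past 2-fold higher, 3, were 1 with equal weights, 0 without the 6 cells and 5 without the 4 cells (2 to 7); past 2-fold lower, 2, were 1 without the 6 cells (1 to 3). Cap genes higher, 16, were 10 without the 6 cells (13 to 16), and core genes higher, 10, were 8 with TMM, 8 without the 6 cells and 9 with equal weights (9 to 11 with 1 cell left out). The cause was not tested. No ratio of a summed role fell past 2-fold either way. Of the 43 measured genes, the ratio changed sign in 7 with equal weights, 10 as mean log2 CPM, 6 after thinning, 3 with TMM, 12 without the 6 cells and 3 without the 4 cells. At these depths many chaperone and activator values are 0 in single cells, and 1 sample a group limits every comparison.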

Other observations

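Genes that make and carry ubiquitin ahead of the proteasome were also measured. Ubb, a polyubiquitin gene, was at 1002 CPM in cells with micronuclei and 523 CPM in cells without, with 5 reads in all 21 and all 14 cells; its log2 ratio of 0.94 lay between 0.77 and 1.13 when 1 cell was left out, was 0.74 with equal weights and was 0.96 without the 6 cells of few genes. Of the 2 activating enzymes, Uba1 was at 218 against 134 CPM (0.70), and Uba6 at 69.7 against 211 CPM (-1.59). Cell 7 without micronuclei gave 56.2% of the Uba6 reads, and leaving it out gave 0.058.

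Among proteins that bring ubiquitylated substrates to the cap, Rad23b was at 40.8 CPM with micronuclei and 121 CPM without (log2 ratio -1.55), with 5 reads in 17 of 21 and 12 of 14 cells, and its ratio was -1.44 without the 6 cells of few genes. Ubqln2 was at 66.3 against 196 CPM (-1.55); cell 7 without micronuclei held 45.1% of the gene's reads, and leaving out the 6 cells gave 0.63. Sqstm1, the autophagy receptor also known as p62, was at 511 against 279 CPM (0.87, 0.29 without the 6 cells).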
